A study of Danio rerio with 9 samples.

Results

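Genes that run the cell cycle were followed in zebrafish embryos lacking MondoA, to ask whether a disturbed epiboly went with a changed expression of the proliferation machinery. The genes were taken as a list of 46 symbols. They covered cyclins and their kinases, replication licensing and DNA synthesis genes, mitosis genes, checkpoint kinases, pocket proteins with E2F factors, and Cdk inhibitors. The symbols matched 49 of the 32055 gene identifiers in the count table, since *ccnd2a*, *mcm6* and *rrm2* each matched 2 identifiers. The *ccnd2a* pair was found only by the name without its last letter, which *ccnd2b* shares, and which identifier is *ccnd2a* was not resolved. Of these, 48 passed the expression filter and were tested, and the exception was a *ccnd2a* identifier (ENSDARG00000070408) that lay below 0.31 CPM in every library. RNA was sequenced from pools of whole embryos in 3 groups of 3 libraries: maternal-zygotic *mondoa* mutants (MZ*mondoa*, allele ka405) with affected epiboly, MZ*mondoa* mutants of the same allele with unaffected epiboly, and wild-type embryos with normal epiboly. The labels give 5 hours post fertilization for all groups, whereas the study's methods describe a later collection, when most of the yolk of the controls was covered, and the age was not resolved. The mutants came from incrosses of homozygous parents and carried the lesion in every cell. Wild-type embryos therefore had other parents, so against wild-type the *mondoa* genotype and the parental background cannot be told apart. The mutant groups were separated by eye. Affected and unaffected embryos thus differ by the phenotype used to sort them and not by the *mondoa* allele. Whether the libraries came from separate clutches is not stated, so p-values measure the spread between these pools.

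The cell cycle is driven by cyclins that activate Cdk kinases in turn, D and E types before DNA replication, A types during it and B types at entry into mitosis. Before replication, Cdc6 and Cdt1 load the hexameric MCM helicase onto origins, and geminin holds Cdt1 back once replication has started. Pocket proteins restrain the E2F factors that switch on replication genes, and Cdk inhibitors act on the kinases themselves. The early zebrafish embryo divides in rapid synchronous cleavages on maternal supplies and lengthens its cycle at the midblastula transition, before epiboly, in which the blastoderm thins and spreads until it covers the yolk.

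Totals were 29653702 to 32417640 counts in the affected, 27567897 to 30897569 in the unaffected and 31249988 to 39299268 in the wild-type libraries. Every wild-type library was thus deeper than every unaffected library, while the affected range overlapped both. A count of 0 allows at most 3 counts, which was 0.11 CPM or less in each library, and this covers counting error only. The 49 identifiers took 0.854% to 0.887% of all counts in affected, 0.881% to 0.901% in unaffected and 0.954% to 1.02% in wild-type libraries. Such a share is weighted toward the most abundant genes and does not show a fall across the list. Of the 48 tested identifiers, 26 had a positive and 22 a negative fold change in affected against wild-type embryos. Levels are given as CPM scaled by TMM, and since CPM is not corrected for gene length, levels were compared between groups and not between genes. In whole embryos, fewer cells of a type and less RNA per cell cannot be told apart.

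Affected embryos differed from wild-type in 20 of the 48 tested identifiers (edgeR quasi-likelihood test, adjusted p under 0.05 over all genes). Of these, 12 were higher and 8 lower. Over all 16962 genes tested, 30.3% passed in this comparison, 15.4% higher and 15.0% lower, so the share among the cell cycle genes, 41.7%, stood beside a high background. Without the *mcm6* identifier ENSDARG00000033231 and the *rrm2* identifier ENSDARG00000078069 the share was 39.1%, with 18 of 46 identifiers called. Unaffected embryos differed from wild-type in 3 identifiers, 0 higher and 3 lower, where the background was 9.60% (4.65% higher and 4.95% lower). Affected and unaffected embryos differed in 2 identifiers, both higher in affected, against a background of 2.99% (1.88% higher and 1.11% lower). With replicate number as the block, the 3 comparisons gave, in this order, 23, 8 and 7 identifiers, where 39.3%, 16.3% and 8.25% of all genes passed. The median log2 fold change of the 48 was 0.02 in affected against wild-type, -0.01 in unaffected against wild-type and 0.04 in affected against unaffected embryos, next to medians over all genes of -0.02, -0.01 and -0.01. In affected against wild-type embryos 26 fold changes were positive and 22 negative. The libraries of the groups did not overlap for 47.9% of the 48 in affected against wild-type embryos, beside 45.1% of all genes tested. These shares were 22.9% and 27.9% in unaffected against wild-type embryos. In affected against unaffected embryos they were 20.8% and 25.4%, so a lack of overlap was common over all genes. The wild-type libraries are shared by the first and second comparison, and the affected and the unaffected libraries each enter 2 comparisons.

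**Figure D1:**
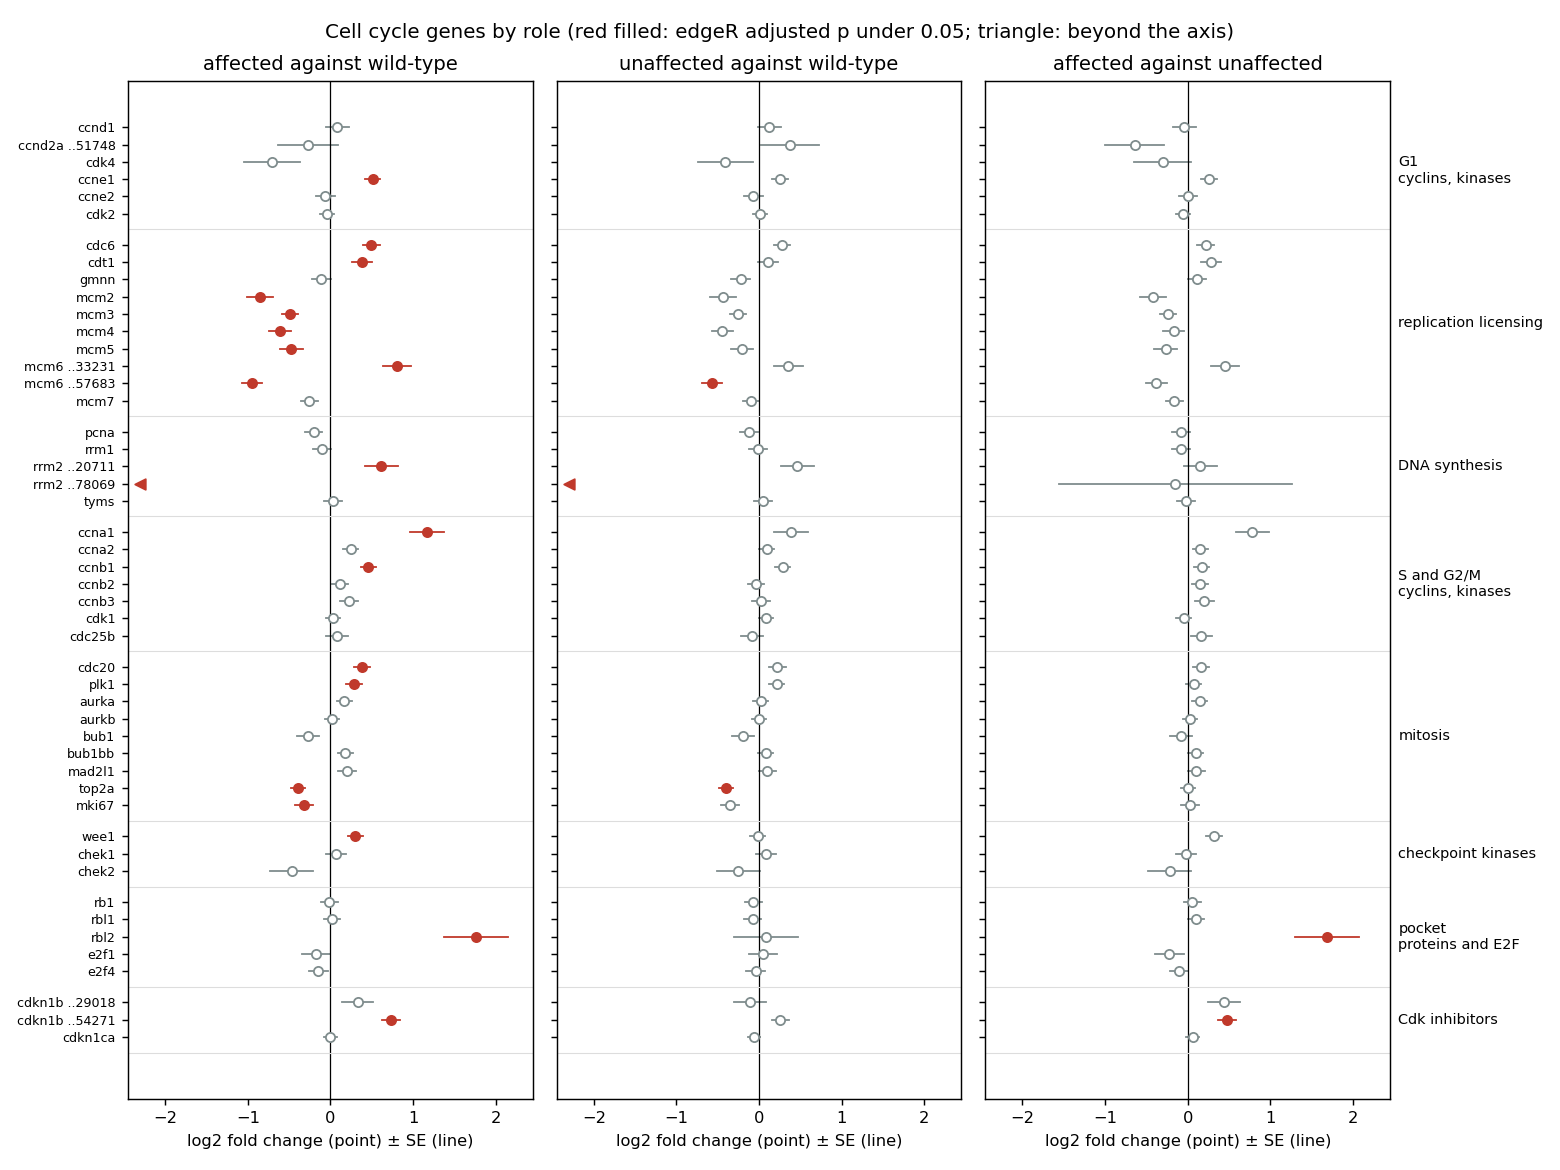
Log2 fold changes (x axis) with their standard errors for the 48 tested identifiers (rows, ordered by role) in affected against wild-type, unaffected against wild-type and affected against unaffected embryos, from the fit over all 9 libraries. Filled red points have an edgeR adjusted p under 0.05: 20, 3 and 2 identifiers. The triangle marks an *rrm2* identifier beyond the axis (-6.00 and -5.85), and names ending in 2 dots and 5 digits give the end of an Ensembl identifier.

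Replication licensing held 8 of the 20 calls in affected against wild-type embryos, a share of 80% of the list beside 30.3% of all genes. Of its 10 identifiers, 5 were lower and 3 higher in affected than in wild-type embryos. In unaffected against wild-type embryos 1 was lower, a share of 10% beside 9.60% of all genes. Between affected and unaffected embryos 0 passed, and 5 had an unadjusted p under 0.05, as did 3085 of all 16962 genes. In that comparison DESeq2 called 0 and the fit with replicate number as the block called 3 (*mcm2* and both *mcm6* identifiers). The median log2 fold change of the list was -0.36 in affected against wild-type, -0.21 in unaffected against wild-type and -0.17 in affected against unaffected embryos. The 5 lower ones were subunits of the MCM helicase, *mcm2*, *mcm3*, *mcm4*, *mcm5* and the *mcm6* identifier ENSDARG00000057683, and the 3 higher ones were the loaders *cdc6* and *cdt1* and the further *mcm6* identifier ENSDARG00000033231. The summed CPM of the licensing list was 1935, 1999.8 and 2167 in affected, 2154, 2109 and 2459 in unaffected and 2373, 2787 and 2841 in wild-type libraries, that is 0.763 times wild-type in affected and 0.840 times wild-type in unaffected embryos.

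*mcm2* (ENSDARG00000102798) had 192, 225 and 257 CPM in affected, 277, 252 and 371 CPM in unaffected and 361, 417 and 441 CPM in wild-type libraries. All affected libraries lay below all wild-type libraries, and unaffected library 3 reached into the wild-type range. Its log2 fold change in affected embryos was -0.85 against wild-type (edgeR adjusted p = 0.00319, SE 0.16) and -0.42 against unaffected (edgeR adjusted p = 0.192, SE 0.16). In unaffected embryos it was -0.44 against wild-type (edgeR adjusted p = 0.113, SE 0.16), and that difference passed without unaffected library 3 (edgeR adjusted p = 0.0223) and with replicate number as the block (edgeR adjusted p = 0.0135).

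The *mcm6* identifier ENSDARG00000057683, which the study's own gene table names *mcm6*, had the smallest adjusted p of the list. Its CPM was 206, 212 and 245 in affected, 274, 258 and 329 in unaffected and 367, 445 and 465 in wild-type libraries, so that the 3 groups did not overlap at any point. It fell by 0.95 on the log2 scale in affected embryos against wild-type (edgeR adjusted p = 0.000624, SE 0.13). In unaffected embryos it fell by 0.57 against wild-type (edgeR adjusted p = 0.0190, SE 0.13), and this did not pass without unaffected library 1, unaffected library 2 or wild-type library 2 (edgeR adjusted p = 0.0529 to 0.0837). Between affected and unaffected embryos the log2 fold change was -0.38 (edgeR adjusted p = 0.135, SE 0.13).

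The other subunits followed with smaller differences. *mcm3* (ENSDARG00000024204) had 311, 309 and 340.1 CPM in affected, 374, 349.9 and 404 CPM in unaffected and 407, 489.7 and 449 CPM in wild-type libraries. All wild-type libraries were above all mutant libraries, and the affected were also below the unaffected ones. The log2 fold change in affected embryos against wild-type was -0.49 (edgeR adjusted p = 0.00435, SE 0.10). *mcm4* (ENSDARG00000040041) had 192, 193 and 229 CPM in affected, 209, 213 and 268 CPM in unaffected and 269, 325 and 344 CPM in wild-type libraries. Here too no mutant library reached the lowest wild-type library, although unaffected library 3 came close. Its log2 fold change was -0.61 in affected (edgeR adjusted p = 0.00644, SE 0.13) and -0.44 in unaffected embryos (edgeR adjusted p = 0.0598, SE 0.13), both against wild-type, and the second passed without unaffected library 3 or without wild-type library 1 (edgeR adjusted p = 0.0231 and 0.0425) and when blocked by replicate number (edgeR adjusted p = 0.00458).

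*mcm5* (ENSDARG00000019507) had 225, 238 and 277 CPM in affected, 269, 264 and 357 CPM in unaffected and 305, 356 and 366 CPM in wild-type libraries. Affected libraries were all below wild-type, and unaffected libraries overlapped both. Its log2 fold change in affected embryos against wild-type was -0.47 (edgeR adjusted p = 0.0254, SE 0.14), and the call was lost without affected library 1 or 2 or wild-type library 2 or 3 (edgeR adjusted p = 0.0598 to 0.0990). *mcm7*, the last subunit, lay between 184 and 219.8 CPM in affected, 206 and 237 CPM in unaffected and 228 and 263 CPM in wild-type libraries. The affected range again stayed below the wild-type range, and the log2 fold change of -0.26 did not pass (edgeR adjusted p = 0.0805, SE 0.10).

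Together, with the *mcm6* pair represented by ENSDARG00000057683, a choice made after its values were seen, all 6 helicase subunits had a negative fold change in each of the 3 comparisons. The median log2 fold change of the 6 was -0.55 in affected against wild-type, -0.35 in unaffected against wild-type and -0.25 in affected against unaffected embryos. In this order 5, 1 and 0 of them passed, beside 30.3%, 9.60% and 2.99% of all genes. In the last comparison 3 had an unadjusted p under 0.05, as did 3085 of all 16962 genes. The summed CPM of the 6 was 1328, 1360.4 and 1568 in affected, 1641, 1544 and 1964 in unaffected and 1942, 2260.4 and 2328 in wild-type libraries. Library 3 was the highest of each group in this sum, and neighbouring groups overlapped: unaffected library 3 exceeded wild-type library 1, and affected library 3 exceeded unaffected library 2. The affected and the wild-type libraries did not overlap. With replicate number as the block, *mcm2* and the *mcm6* identifier ENSDARG00000057683 were also lower in affected than in unaffected embryos (edgeR adjusted p = 0.0298 and 0.0208).

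**Figure D2:**
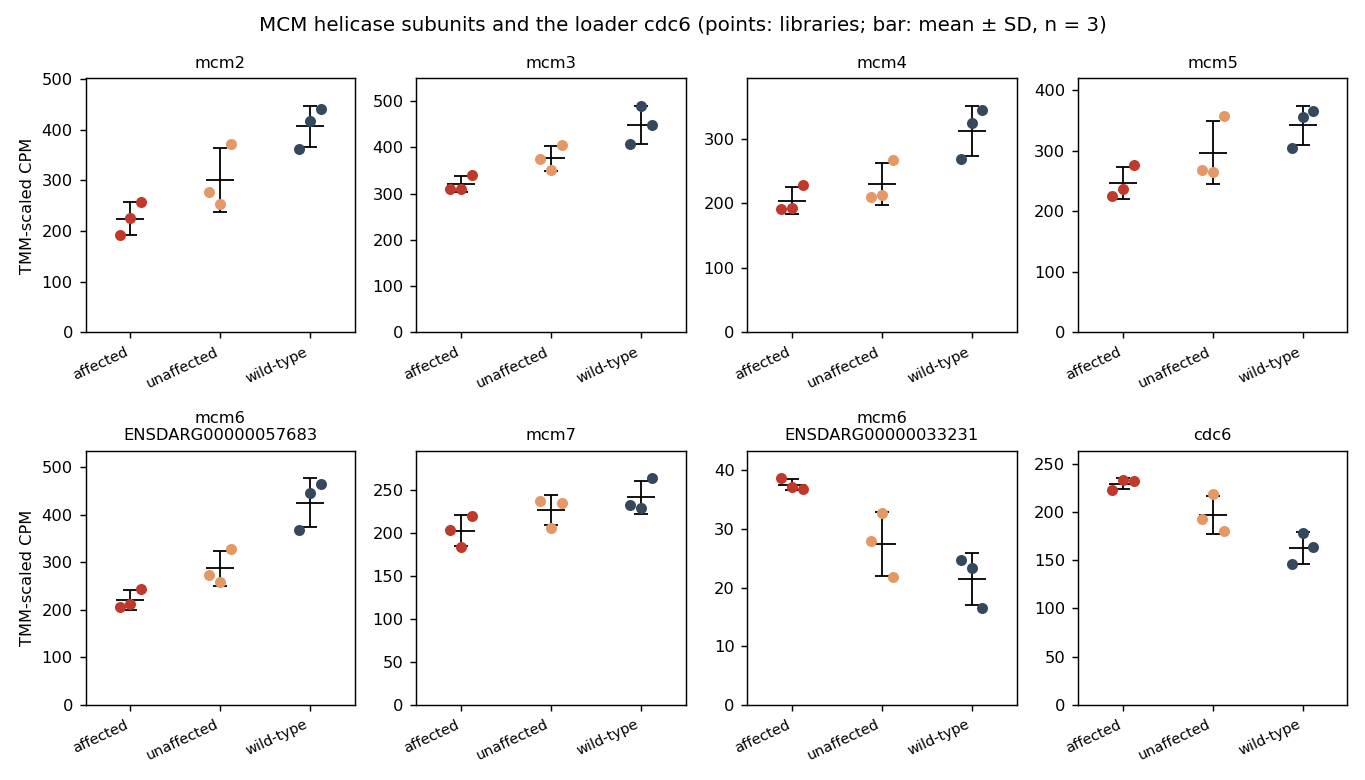
TMM-scaled CPM (y axis, from 0) of the MCM helicase subunits and of the loader *cdc6* in the affected, unaffected and wild-type libraries (points), with the mean ± SD of each group (n = 3). The affected libraries are below the wild-type libraries for *mcm2*, *mcm3*, *mcm4*, *mcm5*, *mcm7* and the *mcm6* identifier ENSDARG00000057683, and above them for *cdc6* and the *mcm6* identifier ENSDARG00000033231. Over all genes tested, 45.1% had no overlap between these groups, in either direction.

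The further *mcm6* identifier went the other way. ENSDARG00000033231 had 38.7, 37.1 and 36.9 CPM in affected, 27.9, 32.7 and 21.9 CPM in unaffected and 24.7, 23.3 and 16.5 CPM in wild-type libraries. The affected libraries were above all others, and the unaffected overlapped wild-type. It rose by 0.80 on the log2 scale in affected embryos against wild-type (edgeR adjusted p = 0.00661, SE 0.17). Against unaffected embryos the log2 fold change was 0.45 (edgeR adjusted p = 0.198, SE 0.17), which passed with replicate number as the block (edgeR adjusted p = 0.0488). It made up 15.8%, 14.9% and 13.1% of the counts of the pair in affected, 9.22%, 11.2% and 6.23% in unaffected and 6.29%, 4.98% and 3.43% in wild-type libraries. In Xenopus, a maternal and a zygotic form of Mcm6 are known, and the zebrafish RefSeq annotation of another assembly lists *mcm6* and *mcm6l*. The identifiers used here could not be tied to these entries, and pairs of reads that fit both copies would have been lost as not unique.

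The MCM loaders were higher in affected embryos. *cdc6* (ENSDARG00000009942) had 223, 233 and 232 CPM in affected, 193, 219 and 180.3 CPM in unaffected and 146, 179 and 164 CPM in wild-type libraries. The 3 groups did not overlap. The log2 fold change was 0.50 in affected (edgeR adjusted p = 0.00512, SE 0.10) and 0.28 in unaffected embryos (edgeR adjusted p = 0.117, SE 0.10), both against wild-type, and the second passed with replicate number as the block (edgeR adjusted p = 0.0362). *cdt1* (ENSDARG00000051854), whose product brings MCM to the origin with Cdc6, had 232, 244 and 196 CPM in affected, 184, 202 and 169 CPM in unaffected and 147, 178 and 191 CPM in wild-type libraries. Affected library 3 was only just above wild-type library 3, and the log2 fold change of 0.38 (edgeR adjusted p = 0.0385, SE 0.12) lost its call without affected library 1 or 2 or wild-type library 1 or 2 (edgeR adjusted p = 0.0644 to 0.123). *gmnn*, which encodes the Cdt1 inhibitor geminin, had 114 to 134 CPM in affected, 109 to 124 CPM in unaffected and 113 to 146 CPM in wild-type libraries and passed in 0 of the 3 comparisons.

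Of 5 identifiers for DNA synthesis, 2 passed in affected against wild-type embryos, a share of 40% beside 30.3% of all genes. Both were *rrm2*, 1 higher and 1 lower, so this share rests on 1 symbol. *pcna* (ENSDARG00000054155), the sliding clamp of the replicative polymerases and a usual readout of proliferation, had 349, 347 and 361 CPM in affected, 362, 346 and 409 CPM in unaffected and 352, 414 and 450.0 CPM in wild-type libraries. The 3 groups overlapped, and the log2 fold change of -0.20 in affected embryos against wild-type (edgeR adjusted p = 0.172, SE 0.11) and those of the other comparisons (-0.12 and -0.08) did not pass. *rrm1*, the large subunit of ribonucleotide reductase, ranged from 309 to 358 CPM in affected, 326 to 387 CPM in unaffected and 332 to 411 CPM in wild-type libraries. *tyms*, which encodes thymidylate synthase, ranged from 18.2 to 19.2 CPM in affected, 17.2 to 21.5 CPM in unaffected and 17.0 to 19.4 CPM in wild-type libraries. Neither passed in any comparison. The summed CPM of the 5 identifiers in affected embryos was 0.986 times that of wild-type.

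The small subunit of ribonucleotide reductase, *rrm2*, is carried by a pair of identifiers with opposite values. ENSDARG00000078069 had 1.31, 1.04 and 0.909 CPM in affected and 1.58, 1.23 and 0.821 CPM in unaffected libraries, and 1.02, 144 and 62.7 CPM in wild-type libraries. Wild-type library 1 was thus at the level of the mutants, and the other wild-type libraries alone carried the difference. Against wild-type, its log2 fold change came to -6.00 in affected (edgeR adjusted p = 0.00609, SE 1.26) and -5.85 in unaffected embryos (edgeR adjusted p = 0.0170, SE 1.25), and the second call was lost without unaffected library 1 or 2 (edgeR adjusted p = 0.0645 and 0.0738). ENSDARG00000020711 had 364, 373 and 382 CPM in affected, 314, 338 and 354 CPM in unaffected and 302, 155 and 273 CPM in wild-type libraries, lowest where its partner was highest. In affected embryos it exceeded wild-type with a log2 fold change of 0.62 (edgeR adjusted p = 0.0379, SE 0.20), which did not pass once any 1 of the 3 affected libraries was left out (edgeR adjusted p = 0.0777 to 0.0848).

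Summed over the pair, a treatment chosen after these values were seen, *rrm2* averaged 374 ± 9.11 CPM in affected, 337 ± 19.7 CPM in unaffected and 312 ± 19.9 CPM in wild-type embryos (SD, n = 3). In affected embryos the summed pair exceeded wild-type with a log2 fold change of 0.26 (edgeR adjusted p = 0.0379, SE 0.08). Its log2 fold change in unaffected embryos against wild-type was 0.11 (edgeR adjusted p = 0.468, SE 0.08). The further identifier held 48.3% of the pair's counts in wild-type library 2 and 18.7% in wild-type library 3. While ENSDARG00000078069 was lower in both mutant groups only beside wild-type libraries 2 and 3, the sum of the pair was not lower in either mutant group.

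**Figure D3:**
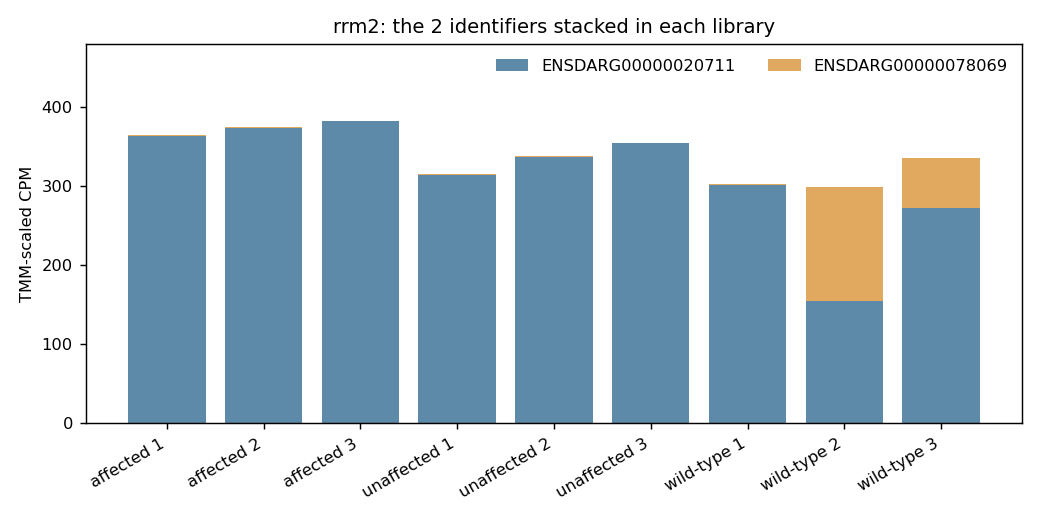
TMM-scaled CPM (y axis, from 0) of the *rrm2* identifiers ENSDARG00000020711 and ENSDARG00000078069, stacked for each of the 9 libraries. The sum runs from 299 CPM in wild-type library 2 to 383 CPM in affected library 3, with every affected library above every wild-type library, and ENSDARG00000078069 is visible only in wild-type library 2 (144 CPM) and wild-type library 3 (62.7 CPM).

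Of 6 tested identifiers for G1 cyclins and kinases, 1 passed in affected against wild-type embryos, a share of 16.7% beside 30.3% of all genes. In the other comparisons 0 passed, where 1 each had an unadjusted p under 0.05 and DESeq2 called 0. Over all 16962 genes, 4240 had an unadjusted p under 0.05 in unaffected against wild-type and 3085 in affected against unaffected embryos. *ccne1* (ENSDARG00000098622), which encodes the cyclin E that activates Cdk2 at the entry into S phase, was the gene that passed, with 97.4, 90.4 and 83.2 CPM in affected, 74.7, 83.3 and 69.1 CPM in unaffected and 64.9, 61.6 and 63.8 CPM in wild-type libraries. All mutant libraries were above all wild-type libraries. Its log2 fold change was 0.51 in affected (edgeR adjusted p = 0.00313, SE 0.09) and 0.26 in unaffected embryos (edgeR adjusted p = 0.119, SE 0.09), both against wild-type. Its partner *cdk2* ranged from 42.2 to 44.9 CPM in affected, 43.0 to 46.1 CPM in unaffected and 41.4 to 46.2 CPM in wild-type libraries, and it passed in 0 of the 3 comparisons. Nor did the other cyclin E gene *ccne2*, with 77.3 to 80.0 CPM in affected, 69.2 to 87.0 CPM in unaffected and 71.6 to 92.2 CPM in wild-type libraries, or the cyclin D gene *ccnd1*, with 778 to 995 CPM in affected, 745 to 1034 CPM in unaffected and 737 to 894 CPM in wild-type libraries. The tested identifier of the *ccnd2a* pair (ENSDARG00000051748), a further cyclin D gene that may be *ccnd2a* or *ccnd2b*, lay between 0.505 and 1.96 CPM in all libraries. *cdk4*, the kinase partner of cyclin D, had 5.93, 5.08 and 4.57 CPM in affected, 7.44, 6.79 and 5.02 CPM in unaffected and 10.6, 11.1 and 3.86 CPM in wild-type libraries. Wild-type library 3 stood apart, and without it *cdk4* was lower than wild-type in both affected and unaffected embryos (edgeR adjusted p = 0.00337 and 0.0341), whereas with it neither difference passed.

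Of the 7 cyclin and kinase genes of S phase and G2/M, 2 passed in affected against wild-type embryos, a share of 28.6% beside 30.3% of all genes. All 7 genes had a positive log2 fold change against wild-type (median 0.22), although that of *cdk1* was -0.03 when scaled by library size only and that of *cdc25b* was near 0 without wild-type library 3. The genes that passed were *ccna1* and *ccnb1*, both higher, and the summed CPM was 1118, 1092 and 1007 in affected, 986, 1029 and 868 in unaffected and 877, 896 and 876 in wild-type libraries. *ccnb1* (ENSDARG00000051923), the cyclin B that drives entry into mitosis with Cdk1, had 469, 434 and 406 CPM in affected, 382, 425 and 358 CPM in unaffected and 324, 316 and 315 CPM in wild-type libraries. All mutant libraries were above all wild-type libraries. The log2 fold change was 0.46 in affected (edgeR adjusted p = 0.00457, SE 0.09) and 0.29 in unaffected embryos (edgeR adjusted p = 0.0756, SE 0.09), both against wild-type. The second difference passed without unaffected library 3 (edgeR adjusted p = 0.0466), with DESeq2 (adjusted p = 0.0357) and with replicate number as the block (edgeR adjusted p = 0.0287).

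*ccna1* (ENSDARG00000043236), an A-type cyclin known in mouse and Xenopus from the germ line and the early embryo, had 11.6, 17.2 and 10.7 CPM in affected, 8.59, 7.70 and 6.69 CPM in unaffected and 5.08, 7.01 and 5.49 CPM in wild-type libraries. The affected libraries were above all others. It rose by 1.17 on the log2 scale in affected embryos against wild-type (edgeR adjusted p = 0.00245, SE 0.20). Against unaffected embryos the log2 fold change was 0.78 (edgeR adjusted p = 0.0702, SE 0.20), and this difference was called by DESeq2 (adjusted p = 0.00869) and with replicate number as the block (edgeR adjusted p = 0.0207). In a list of 16 maternal transcripts, such as *buc*, *npm2b* and *zp3b*, 7 of the 15 tested were higher and 1 lower in affected than in wild-type embryos. That share of 53.3% stood beside 30.3% of all genes. Between affected and unaffected embryos 0 of the 15 passed (smallest edgeR adjusted p = 0.112), where 5 had an unadjusted p under 0.05, as did 3085 of all 16962 genes. The summed level of the list was 106 to 128 CPM in affected, 80.5 to 103 CPM in unaffected and 67.3 to 82.4 CPM in wild-type libraries. The egg coat gene *zp2.1* was at or near 0 in every group. The part of maternal RNA in the rise of *ccna1* and of the further *mcm6* identifier was not tested.

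*cdk1* (ENSDARG00000087554), the mitotic kinase itself, had 59.1, 64.9 and 60.3 CPM in affected, 59.7, 65.3 and 65.9 CPM in unaffected and 57.4, 58.1 and 64.4 CPM in wild-type libraries. The groups overlapped, and the log2 fold changes were 0.03 in affected and 0.09 in unaffected embryos against wild-type (SE 0.09 each). *ccna2*, the A-type cyclin of dividing somatic cells, ranged from 239 to 263 CPM in affected, 199 to 243 CPM in unaffected and 205 to 218 CPM in wild-type libraries. Its log2 fold change of 0.24 in affected embryos against wild-type missed the threshold (edgeR adjusted p = 0.0684, SE 0.09) and passed with DESeq2 (adjusted p = 0.0484). *ccnb2* and *ccnb3*, further B-type cyclins, and *cdc25b*, the phosphatase that activates Cdk1, passed in 0 of the 3 comparisons. Their log2 fold changes in affected embryos against wild-type were 0.12, 0.22 and 0.08.

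Mitosis genes were divided, and 44.4% of them passed in affected against wild-type embryos beside 30.3% of all genes. Of 9, 2 were higher (*cdc20*, *plk1*) and 2 lower (*top2a*, *mki67*) in affected than in wild-type embryos, 1 was lower (*top2a*) in unaffected than in wild-type embryos, and 0 differed between affected and unaffected embryos, where 0 had an unadjusted p under 0.05, DESeq2 called 0 and the largest log2 fold change in either direction was 0.16. *mki67* (ENSDARG00000091150), which encodes the Ki-67 protein of dividing cells, had 1729, 1590.3 and 1507 CPM in affected, 1705, 1627 and 1392 CPM in unaffected and 1931, 2202 and 1903 CPM in wild-type libraries. All mutant libraries were below all wild-type libraries, and the mutant groups overlapped. For *mki67* the log2 fold change was -0.32 in affected (edgeR adjusted p = 0.0441, SE 0.11) and -0.35 in unaffected embryos (edgeR adjusted p = 0.0655, SE 0.11), both against wild-type. The first was close to the threshold and was lost without any 1 of the affected libraries or without wild-type library 1 or 2 (edgeR adjusted p = 0.0635 to 0.155), and the second passed in the DESeq2 fit (adjusted p = 0.0303) and in the blocked fit (edgeR adjusted p = 0.0161).

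*top2a* (ENSDARG00000024488), the topoisomerase that untangles sister chromatids, had 465, 408 and 442 CPM in affected, 434, 449 and 426 CPM in unaffected and 569, 611 and 549 CPM in wild-type libraries. All mutant libraries were below all wild-type libraries. It fell by 0.39 on the log2 scale in affected (edgeR adjusted p = 0.00630, SE 0.08) and by 0.40 in unaffected embryos (edgeR adjusted p = 0.0154, SE 0.08), both against wild-type, and the second call was lost without unaffected library 1 or 2 (edgeR adjusted p = 0.0617 and 0.0556). Between affected and unaffected embryos the log2 fold change was 0.01 for *top2a* (SE 0.08) and 0.03 for *mki67* (SE 0.11).

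*cdc20* (ENSDARG00000100741), which activates the anaphase-promoting complex, had 196, 186 and 164 CPM in affected, 168, 177 and 144 CPM in unaffected and 135, 141 and 144 CPM in wild-type libraries. Affected libraries were above wild-type without overlap. Its log2 fold change was 0.38 (edgeR adjusted p = 0.0174, SE 0.10), and the call was lost without affected library 1 or 2 or wild-type library 1 (edgeR adjusted p = 0.0552 to 0.0664). *plk1* (ENSDARG00000058471), a kinase of spindle assembly and mitotic entry, had 307, 271 and 261 CPM in affected, 268, 286 and 245 CPM in unaffected and 232, 231 and 225 CPM in wild-type libraries. All mutant libraries exceeded wild-type, and the log2 fold change of 0.29 in affected embryos (edgeR adjusted p = 0.0382, SE 0.09) lost its call without affected library 1 or 2 or any 1 of the wild-type libraries (edgeR adjusted p = 0.0695 to 0.138). The spindle checkpoint genes *bub1*, *bub1bb* and *mad2l1* and the Aurora kinases *aurka* and *aurkb* passed in 0 of the 3 comparisons, with log2 fold changes between -0.27 and 0.20 in affected embryos against wild-type.

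**Figure D4:**
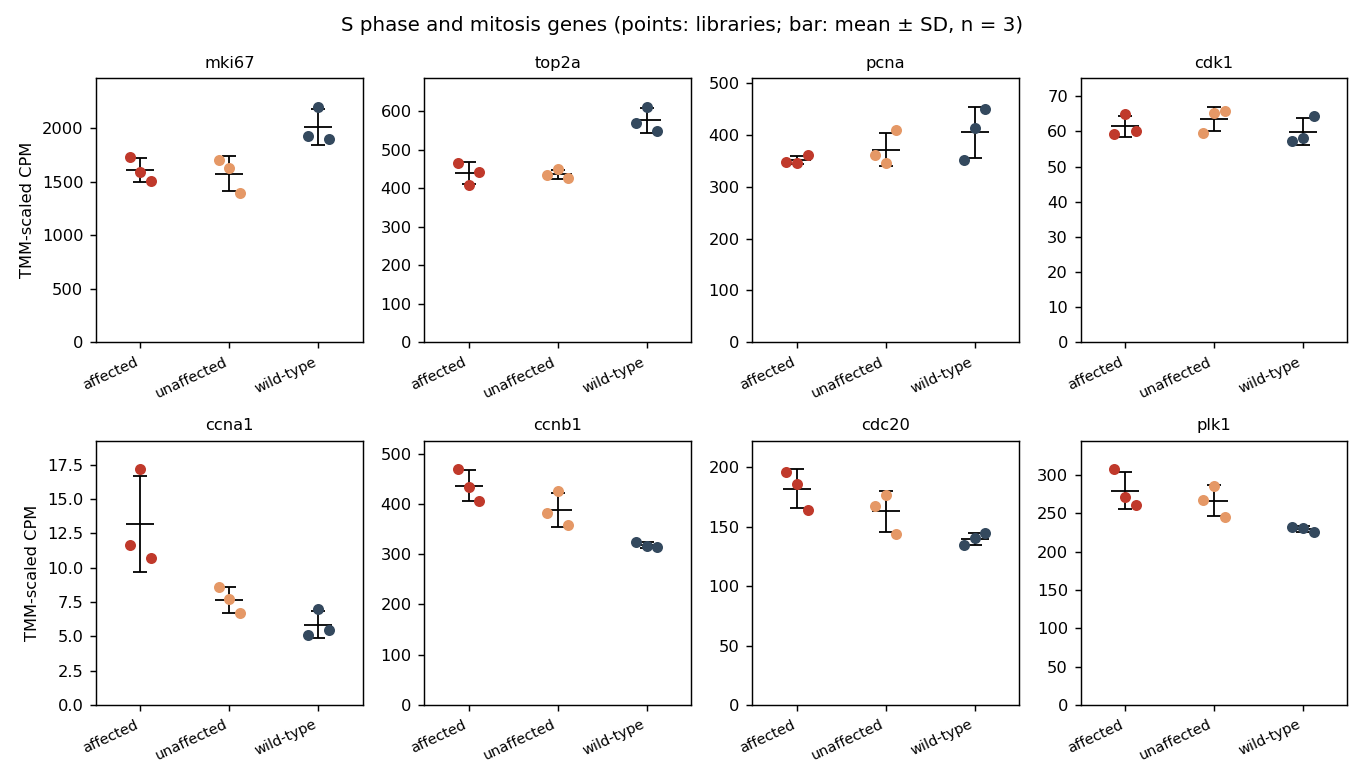
TMM-scaled CPM (y axis, from 0) of *mki67*, *top2a*, *pcna*, *cdk1*, *ccna1*, *ccnb1*, *cdc20* and *plk1* in the affected, unaffected and wild-type libraries (points), with the mean ± SD of each group (n = 3). Mutant libraries of both phenotypes lie below wild-type for *mki67* and *top2a* and above it for *ccnb1* and *plk1*, and all groups overlap for *pcna* and *cdk1*. Over all genes tested, 45.1% had no overlap between affected and wild-type and 27.9% between unaffected and wild-type libraries, in either direction.

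Among the checkpoint kinases, *wee1* (ENSDARG00000093864), which holds Cdk1 inactive, had 256, 272 and 235 CPM in affected, 208, 217 and 185 CPM in unaffected and 199.9, 223 and 195 CPM in wild-type libraries. The affected libraries were above all others, and the unaffected and wild-type libraries overlapped. In affected embryos the log2 fold change was 0.30 against wild-type (edgeR adjusted p = 0.0371, SE 0.10) and 0.32 against unaffected (edgeR adjusted p = 0.105, SE 0.10). The first call was lost without affected library 1 or 2 or wild-type library 1 or 3 (edgeR adjusted p = 0.0875 to 0.127), and the second difference passed in the DESeq2 fit (adjusted p = 0.0436) and in the blocked fit (edgeR adjusted p = 0.0133). *chek1* and *chek2*, kinases of the DNA damage and replication checkpoint, passed in 0 of the 3 comparisons. *chek1* had 14.0 to 15.8 CPM in affected, 13.9 to 16.8 CPM in unaffected and 13.0 to 16.3 CPM in wild-type libraries. *chek2* had 6.86 to 9.28 CPM in affected, 7.70 to 9.76 CPM in unaffected and 7.41 to 15.8 CPM in wild-type libraries.

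In the main fit, 2 of the 48 identifiers passed between affected and unaffected embryos, a share of 4.17% beside 2.99% of all genes. The 2 were the pocket protein gene *rbl2* and the Cdk inhibitor identifier ENSDARG00000054271. Their number was close to that share, and neither call held in every alternative. The other pocket protein genes and Cdk inhibitors of the list, and *wee1*, did not pass in this fit. Other fits added members of other roles. DESeq2 called 4, with *ccna1* and *wee1* also higher, where 7.32% of all genes passed. The blocked fit called 7, where 8.25% of all genes passed. In it *mcm2* and the *mcm6* identifier ENSDARG00000057683 were also lower and the *mcm6* identifier ENSDARG00000033231 was also higher. *rbl2* (ENSDARG00000045636), which encodes the pocket protein p130 of resting cells, had 39.8, 14.6 and 34.6 CPM in affected, 6.43, 12.1 and 9.09 CPM in unaffected and 7.60, 5.99 and 12.5 CPM in wild-type libraries. The affected libraries were above all others, but affected library 2 was near the top of the unaffected range. In affected embryos the log2 fold change was 1.68 against unaffected (edgeR adjusted p = 0.0484, SE 0.39) and 1.77 against wild-type (edgeR adjusted p = 0.00742, SE 0.39), and in unaffected embryos against wild-type it was 0.08 (SE 0.39). The call against unaffected embryos was lost without affected library 1 or 3 or any 1 of the unaffected libraries (edgeR adjusted p = 0.0549 to 0.169).

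A Cdk inhibitor of the p27 type was likewise highest in affected embryos. The symbols *cdkn1ba* and *cdkn1bb* share a pair of identifiers, and which is which was not resolved. ENSDARG00000054271 had 27.8, 32.6 and 29.7 CPM in affected, 21.5, 22.1 and 21.2 CPM in unaffected and 16.6, 20.4 and 17.1 CPM in wild-type libraries, with no overlap between the 3 groups. The log2 fold change in affected embryos was 0.48 against unaffected (edgeR adjusted p = 0.0457, SE 0.11) and 0.74 against wild-type (edgeR adjusted p = 0.00103, SE 0.11). The first call was lost when any 1 of the 6 libraries was left out (edgeR adjusted p = 0.0746 to 0.184), and the second held in all alternatives. Its partner ENSDARG00000029018 had 11.8 to 16.8 CPM in affected, 9.09 to 13.4 CPM in unaffected and 10.2 to 13.5 CPM in wild-type libraries and did not pass. *cdkn1ca*, a p57-type inhibitor, had 125 to 129 CPM in affected, 116 to 125 CPM in unaffected and 119 to 132 CPM in wild-type libraries. The other pocket protein genes, *rb1* and *rbl1*, and the E2F genes *e2f1* and *e2f4* had log2 fold changes between -0.22 and 0.10 in all 3 comparisons, of which 0 passed.

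Further cell cycle genes, grouped by role, were counted in the same fit (133 tested). In affected against wild-type embryos 20 were higher and 7 lower, in unaffected against wild-type embryos 5 were higher and 2 lower, and in affected against unaffected embryos 6 were higher and 0 lower. The share called was 20.3% in affected against wild-type embryos, where 30.3% of all genes passed, 5.26% in unaffected against wild-type embryos (9.60% of all genes) and 4.51% in affected against unaffected embryos (2.99% of all genes). Among 41 further replication genes, 0 were higher and 4 lower in affected than in wild-type embryos, named here after their values were seen: *orc4*, a subunit of the origin recognition complex, and *pola1*, *pold1* and *pole*, the catalytic subunits of the replicative polymerases. That share of 9.76% was below the 30.3% of all genes. Called or not, 30 of the 41 fold changes were negative and 11 positive in affected against wild-type embryos (median -0.11). In unaffected against wild-type embryos 25 were negative and 16 positive (median -0.03). Between affected and unaffected embryos 33 were negative and 8 positive (median -0.14), and 0 passed. *orc4* averaged 8.17 ± 2.19 CPM in affected, 10.9 ± 3.13 CPM in unaffected and 28.3 ± 10.9 CPM in wild-type embryos (SD, n = 3), and it was also the only one of the 41 that passed in unaffected against wild-type embryos (edgeR adjusted p = 0.0192, with a log2 fold change of -1.37). Among 44 further mitosis genes, 8 were higher and 1 lower in affected than in wild-type embryos, a count that ran from 3 to 9 when 1 library was left out (3 without affected library 1, affected library 2 or wild-type library 1). The share called was 20.5% (18.2% higher), beside 30.3% (15.4% higher) over all genes. *cenpf*, a kinetochore gene and likewise named after its values were seen, was the 1 mitosis gene that passed in unaffected against wild-type embryos, and it averaged 629 ± 71.9 CPM in affected, 648 ± 71.4 CPM in unaffected and 372 ± 46.1 CPM in wild-type embryos (SD, n = 3).

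Growth arrest genes held all 6 of the further genes that passed between affected and unaffected embryos. This list was chosen with earlier results of these data known, so its shares are a description and not independent support. Of 19 tested, 9 were higher and 0 lower in affected than in wild-type embryos, 3 were higher in unaffected than in wild-type embryos, and 6 were higher in affected than in unaffected embryos. The share called, in each case higher, was 47.4% in affected against wild-type (15.4% of all genes were higher), 15.8% in unaffected against wild-type (4.65% of all genes) and 31.6% in affected against unaffected embryos (1.88% of all genes). The median log2 fold change of the 19 was 0.37, -0.08 and 0.41 in these comparisons, beside medians of all genes near 0. The list did not move as one. In affected against wild-type embryos 12 fold changes were positive and 7 negative, the lowest -2.14. Unaffected against wild-type embryos had 6 positive and 13 negative, and affected against unaffected embryos 14 positive and 5 negative. The summed CPM of the list was 939, 1029 and 1078 in affected, 649, 737 and 721 in unaffected and 662, 662 and 721 in wild-type libraries. Affected libraries were above all others, and the unaffected and wild-type libraries overlapped.

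Those 6 identifiers were 3 of the Gadd45 family, which responds to stress, and *ccng1*, *tob1b* and *btg1*, whose products are known to slow proliferation. ENSDARG00000013576, named *gadd45bb* in the study's gene table, had 47.2, 51.3 and 47.1 CPM in affected, 21.7, 25.8 and 13.7 CPM in unaffected and 10.1, 9.39 and 11.6 CPM in wild-type libraries. The 3 groups did not overlap, and the log2 fold change was 1.25 against unaffected (edgeR adjusted p = 0.0146, SE 0.19). The other *gadd45b* identifier, ENSDARG00000027744, was higher in affected than in unaffected embryos by 0.78, and the *gadd45g* identifier ENSDARG00000019417 by 0.61 (edgeR adjusted p = 0.0298 and 0.0327). *ccng1*, the cyclin G known as a p53 target in mammals, had 444, 448 and 531 CPM in affected, 276, 339 and 331 CPM in unaffected and 307, 299 and 349 CPM in wild-type libraries, with a log2 fold change of 0.59 against unaffected (edgeR adjusted p = 0.0278, SE 0.11). *tob1b* and *btg1*, of the BTG/Tob antiproliferative family, followed with 0.55 and 0.41 (edgeR adjusted p = 0.0252 and 0.0491). This count of 6 was 0 without affected library 1 (67 over all genes), affected library 2 (42 over all genes) or unaffected library 1 (48 over all genes), 1 without unaffected library 3 (97 over all genes) and 2 without affected library 3 (333 over all genes). *cdkn1a*, the p21-type inhibitor of the same list, had 10.1, 6.69 and 11.8 CPM in affected, 3.48, 5.10 and 6.76 CPM in unaffected and 4.34, 5.44 and 6.94 CPM in wild-type libraries and did not pass against unaffected embryos (log2 fold change 0.89, edgeR adjusted p = 0.121).

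**Figure D5:**
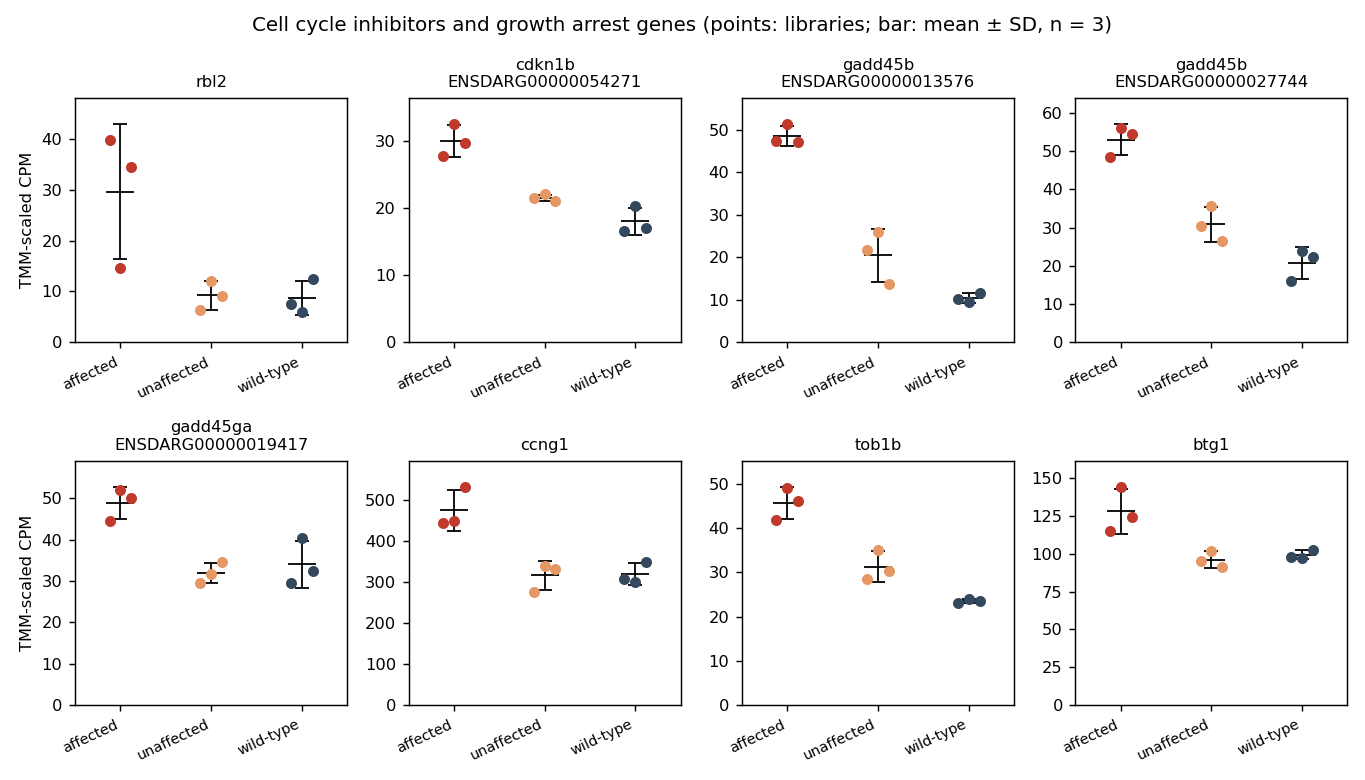
TMM-scaled CPM (y axis, from 0) of *rbl2*, the *cdkn1b* identifier ENSDARG00000054271 and the 6 growth arrest identifiers that passed between affected and unaffected embryos, in the affected, unaffected and wild-type libraries (points), with the mean ± SD of each group (n = 3). Affected libraries are above the other groups in every panel, and affected library 2 of *rbl2* (14.6 CPM) is close to the highest unaffected library (12.1 CPM). All panels were chosen because they passed as higher in affected than in unaffected embryos, so this position follows largely from the choice. Over all genes tested, 25.4% had no overlap between affected and unaffected and 45.1% between affected and wild-type libraries, in either direction.

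Markers of tissues and stages differed from wild-type mainly in affected embryos. Over all genes 30.3% passed in affected against wild-type, 9.60% in unaffected against wild-type and 2.99% in affected against unaffected embryos. The share of markers called in affected against wild-type embryos was 62.5% for the yolk syncytial layer, 64.7% for the enveloping layer, 69.2% for the presomitic mesoderm, 55.6% for the neural plate and 53.3% for the maternal list. In unaffected against wild-type embryos these shares were, in the same order, 6.25%, 11.8%, 0%, 0% and 0%. Of 16 yolk syncytial layer genes tested, 8 were higher and 2 lower in affected than in wild-type embryos and 4 higher and 1 lower in affected than in unaffected embryos, with summed levels of 7136 to 7780 CPM in affected, 5602 to 6408 CPM in unaffected and 6292 to 6804 CPM in wild-type libraries. The defining gene *mxtx2* was near 0 throughout. Of 17 enveloping layer genes, 5 were higher and 6 lower in affected than in wild-type embryos and 0 higher and 4 lower in affected than in unaffected embryos, with sums of 11469 to 12725 CPM in affected, 15038 to 17195 CPM in unaffected and 13082 to 16886 CPM in wild-type libraries. Of 13 presomitic mesoderm genes tested, 4 were higher and 5 lower in affected than in wild-type embryos (772 to 975 CPM in affected, 887 to 1008 CPM in unaffected and 911 to 1119 CPM in wild-type libraries). Between affected and unaffected embryos 0 of these 13 passed. Of 9 neural plate genes tested, 0 were higher and 5 lower in affected than in wild-type embryos (746 to 832 CPM in affected, 932 to 1049.7 CPM in unaffected and 941 to 979 CPM in wild-type libraries). Against unaffected embryos 0 of these 9 were higher and 2 lower in affected embryos. The part of tissue makeup and developmental stage in the differences of the cell cycle genes was not tested.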

How the data were processed

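Embryos were pooled and total RNA was extracted (with TRIzol per the labels, on columns with a DNase step per the study's methods), depleted of ribosomal RNA and sequenced as stranded paired-end libraries, although polyA RNA is the molecule named in the labels. The authors mapped reads to GRCz11 with STAR (version 2.4.0i in the submitters' processing notes, with bcl2fastq 2.17.1.14) and deposited raw counts of uniquely mapped pairs over exons of Ensembl genes, neither normalized nor pooled. Use of the strand in counting is not given in the sources used here, so overlapping and antisense genes are uncertain. Symbols were matched through a table of Ensembl names, and where none matched, a final a or b was dropped from the symbol.

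The analysis used R 4.3.3, edgeR 4.0.16 and limma 3.58.1. filterByExpr by group kept 16962 genes, libraries were scaled by TMM, and all 9 libraries entered a quasi-likelihood fit with 3 groups and no covariate (two-sided, Benjamini-Hochberg over all genes in each of 3 comparisons, threshold 0.05), where the study used DESeq2. The biological coefficient of variation was 0.176. Standard errors were derived from the coefficient and its F statistic. The script was tested on simulated data. Libraries of a group differed beyond sampling noise (chi-square of 9.06 to 67.7 per degree of freedom). Members and lists were chosen with earlier results of these data known. Values per library are given for members called in at least 1 comparison and for *pcna*, *mki67* and *cdk1*, and further genes are named where called between affected and unaffected embryos. Outside this rule, *cdk4* and the further genes *orc4*, *pola1*, *pold1*, *pole*, *cenpf* and *cdkn1a* are named, chosen after their values were seen. *dld* was left out of the markers because its name matched another gene. Promoter and protein sequences were not used here. Alternatives were other filters, scalings, DESeq2 1.42.0, only the 6 libraries compared, the replicate number as a block and leaving out each library.

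The labels number the libraries 1 to 3 in each group. Libraries with a shared number deviated together from the means of their groups. The correlations were 0.169, 0.236 and 0.462 (affected and unaffected), 0.123, 0.141 and 0.268 (unaffected and wild-type) and 0.0805, 0.113 and 0.260 (affected and wild-type). The main fit held no term for the number, so its calls leave this pairing out. The number entered only as a block in an alternative fit, for all 3 comparisons.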

Additional observations from a re-analysis of the deposited data

How the results depend on the processing

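Of the 20 identifiers called in affected against wild-type embryos, 13 kept their call in every alternative (both *mcm6* identifiers, *mcm2*, *mcm3*, *mcm4*, *cdc6*, *ccne1*, *ccna1*, *ccnb1*, *top2a*, *rbl2*, the *rrm2* identifier ENSDARG00000078069 and the *cdkn1b* identifier ENSDARG00000054271), and 7 lost it at least once. The *rrm2* identifier kept its call although wild-type library 1 (1.02 CPM) was at the level of the mutants, so the groups overlapped. 0 of the 3 calls in unaffected against wild-type and 0 of the 2 in affected against unaffected embryos held throughout, and 0 reversed. The number called in affected against wild-type embryos was 13 to 18 with 1 library left out and 23 with the replicate block. In unaffected against wild-type embryos it was 6 with DESeq2, 8 with the block (2 higher and 6 lower) and 0 to 6 with 1 library left out. In affected against unaffected embryos it was 1 without a filter, 0 with library size only, 4 with DESeq2, 7 with the block (5 higher and 2 lower) and 0 to 1 with 1 library left out. Over all genes the block called 6667, 2758 and 1399 and DESeq2 5451, 2251 and 1242 in affected against wild-type, unaffected against wild-type and affected against unaffected embryos. With library size only, the median log2 fold change of the list turned to -0.036 in affected against wild-type and to -0.0058 in affected against unaffected embryos, the calls in affected against wild-type embryos were 9 higher and 9 lower in place of 12 and 8, while the median of all genes moved to -0.08 and -0.06. In unaffected against wild-type embryos the list's median ran from -0.032 to 0.042 with 1 library left out, and was 0.017 without wild-type library 2 and 0.042 without wild-type library 3. Summed CPM ratios that moved with library size only were those of DNA synthesis (0.946 in affected over wild-type and 0.963 in affected over unaffected) and of the Cdk inhibitors (1.05 and 1.08). Further replication genes called in affected against wild-type embryos numbered 8 with library size only and 11 with the block in place of 4, further mitosis genes 15 with the block in place of 9, and all genes in unaffected against wild-type embryos 965 in the fit of those 6 libraries in place of 1628. In affected against wild-type embryos the block added *mcm7*, *ccna2* and *bub1*, and beyond the calls named beside the results it changed no other. The cause of these changes was not tested. With 3 pools against 3, an exact permutation test of a single value cannot give a p below 0.10, so calls rest on the spread shared across genes.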
